A study of Homo sapiens with 9 samples.

Results

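The genes described here are 10 members of the germline piRNA pathway, GPAT2, TDRD12, TDRD1, TDRD9, PIWIL1, PIWIL2, PIWIL4, MAEL, MOV10L1 and ASZ1. Every probe set of the deposited table annotated to a member was taken, which gave 13 of 54675 probe sets. GPAT2 and TDRD12 were put on the list because earlier results of these data showed them higher in treated than in untreated cells, so their values in that contrast are a description and carry no test. The other 8 genes were taken for their place in the pathway. All 10 genes had a probe set, with 3 for PIWIL2, 2 for MOV10L1 and 1 for each of the others.

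The study measured total RNA of HSF-6, a line of human embryonic stem cells, on 9 Affymetrix expression arrays. Its 3 groups of 3 arrays were subline HSF-6(8) grown without added compounds (untreated), HSF-6(8) grown with butyrate and DZNep (treated), and subline HSF-6(S9) grown with the same pair of compounds (treated). Cells of every group were collected after 11 passages, and the growth note gives 6 days of culture. Butyrate inhibits histone deacetylases, and DZNep (3-deazaneplanocin A) blocks the hydrolysis of S-adenosylhomocysteine, a product of methylation reactions. No untreated HSF-6(S9) samples were analysed here, and no doses are given in the sources used here. The compounds were applied together, so their separate effects cannot be told apart, and subline and treatment differ together between HSF-6(S9) and untreated HSF-6(8). The arrays of a group carry only prime marks in their titles and are called the first, the second and the third array here. The labels do not say whether they are separate cultures, so p-values measure only how far these samples spread, and that spread may be technical.

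PIWI-interacting RNAs (piRNAs) are small RNAs of germ cells that are cut from long single-stranded precursors and loaded into PIWI proteins. They guide PIWI proteins to transposon RNAs for cleavage, and in the nucleus they direct DNA methylation to transposon promoters. Much of the processing takes place in nuage, granules beside mitochondria that are held together by Tudor domain proteins. Most of the genes of this pathway are methylated or held silent by Polycomb-type complexes outside the germline, and embryonic stem cells are not known as a place of piRNA production.

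GPAT2 and TDRD12 were the only members of the 10 genes with signal above background on more than 1 array. GPAT2 went from background in untreated HSF-6(8) to intensities between 249.9 and 430.2 in both treated groups. By the background yardstick described here, TDRD12 had signal in every sample and more of it in both treated groups. MAEL stood above background on 1 array, and the probe sets of the other 7 genes stayed near background on all 9 arrays. As the deposited table holds no detection calls, background was set on each array as the 95th percentile of its 135 probe sets for olfactory receptors, genes that are not known to be expressed in stem cell cultures. This yardstick lay between 78.9 and 128 units of intensity over the 9 arrays. By it, 10 of 13 member probe sets (76.9%) were near background on every array, against 24175 of 54613 probe sets of the table that are not controls (44.3%).

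**Figure D1:**
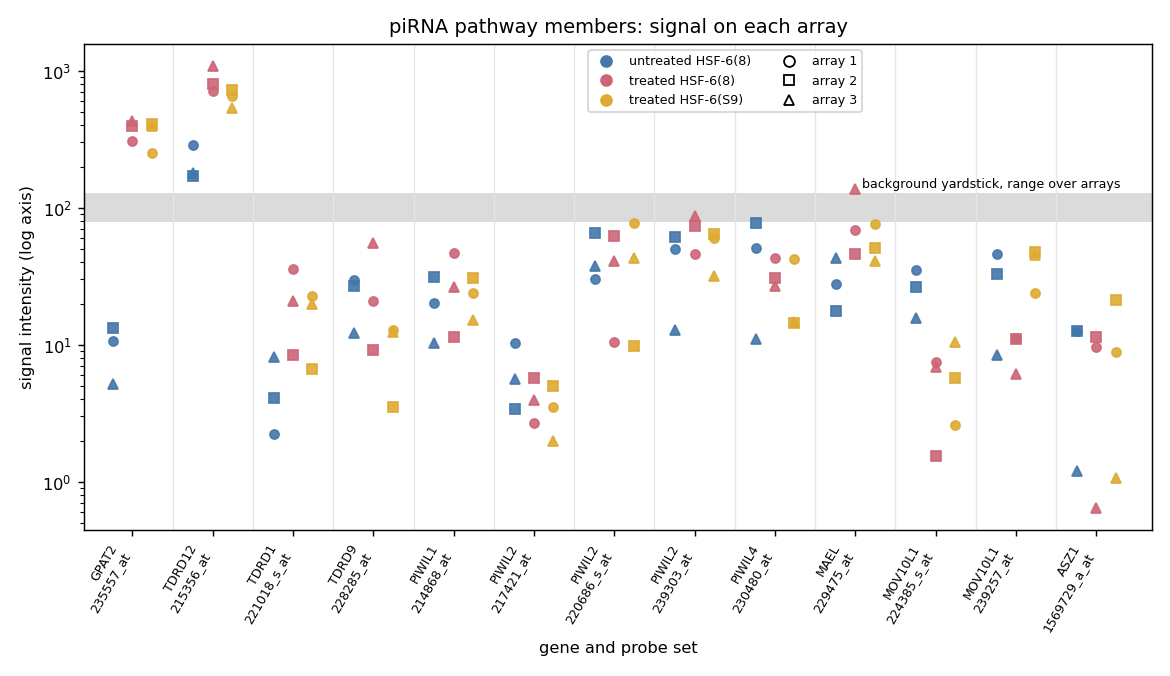
Intensity (log axis, linear units of the deposited values) of the 13 member probe sets on the 9 arrays, with 1 point per array and colour by group. The grey band is the range of the background yardstick over the arrays, 78.9 to 128. GPAT2 lies above it in both treated groups and below it in the untreated group, TDRD12 lies above it in all groups, and the others lie within or below it except MAEL on 1 array.

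GPAT2 encodes a mitochondrial glycerol-3-phosphate acyltransferase that, in mouse germ cells, binds the PIWI protein PIWIL2 and takes part in primary piRNA production. In untreated HSF-6(8), its probe set (235557_at) had intensities of 10.7, 13.3 and 5.13 on the first, the second and the third array. In treated HSF-6(8) the values were 306, 395 and 430.2. In treated HSF-6(S9) they were 249.9, 411 and 396. All 3 untreated arrays were under the yardstick and all 6 treated arrays above it, and the treated groups overlapped each other. The means were 9.74 ± 4.20, 377 ± 64.2 and 352 ± 88.9 (SD, n = 3 arrays each). Set against the yardstick in place of the untreated signal, GPAT2 was at least 3.66-fold higher in treated HSF-6(8) and at least 3.38-fold higher in treated HSF-6(S9). These bounds rest on the percentile used for the yardstick, with 1.09-fold and 1.00-fold for the 99th and 5.73-fold and 5.28-fold for the 90th, chosen as checks after seeing the data. By the 99th percentile GPAT2 was above background on 1 treated HSF-6(8) array and 2 treated HSF-6(S9) arrays. In bulk RNA, a gene switched on in a few cells and a gene raised in every cell cannot be told apart. GPAT2P1 and GPAT2P2 are pseudogene copies of GPAT2, and whether the probe set also binds their RNA was not tested.

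TDRD12 encodes a Tudor domain protein with a helicase domain that is needed for secondary piRNA production in mouse testis. Its probe set (215356_at) had intensities of 286, 172 and 181 in untreated HSF-6(8). The treated HSF-6(8) arrays had 710.3, 795 and 1083. The treated HSF-6(S9) arrays had 653, 719 and 539. TDRD12 was thus above the yardstick on all 9 arrays (by the 99th percentile on all 6 treated arrays and 0 of 3 untreated ones), and its lowest treated value was above its highest untreated value. The means were 213 ± 63.5, 863 ± 196 and 637 ± 91.2 (SD, n = 3). The first untreated array was the highest of its group, and the third treated HSF-6(8) array the highest of all.

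MAEL encodes a nuage protein with an HMG-like domain that is needed for transposon silencing in germ cells. Its intensities (229475_at) were 28.0, 17.6 and 43.0 in untreated HSF-6(8), 69.3, 46.0 and 136 in treated HSF-6(8), and 75.8, 51.0 and 40.7 in treated HSF-6(S9). Every treated HSF-6(8) value was above every untreated one, but only the third treated HSF-6(8) array was above the yardstick. MAEL was also above the array's own median on only 2 of 9 arrays, 1 short of the 3 that the test asked for. On the first treated HSF-6(8) array it missed that median narrowly, with 69.28 against 69.31. The means were 29.5 ± 12.8, 83.9 ± 47.0 and 55.8 ± 18.0 (SD, n = 3). Most of these values were under the yardstick, so the log2 differences given for MAEL below compare signals near background and are not folds of its RNA.

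**Figure D2:**
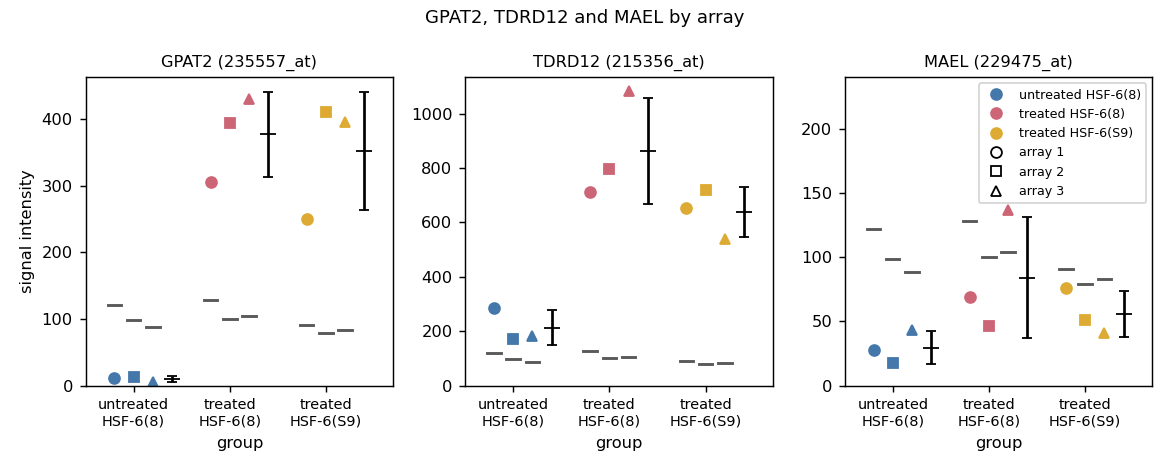
Intensity (linear axes) of GPAT2, TDRD12 and MAEL on each array, by group, with the yardstick of the same array as a grey dash and mean ± SD (n = 3 arrays) in black. GPAT2 sits near 0 in the untreated group and between 249.9 and 430.2 in the treated groups, TDRD12 is above the dashes throughout, and MAEL passes its dash on the third treated HSF-6(8) array alone.

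The promoters of the members were compared because GPAT2 and TDRD12 were higher in the same treated samples while most of their partners stayed near background, and 4 of them are printed so that they can be set side by side. Germline gene promoters in embryonic stem cells are bound by the non-canonical Polycomb complex PRC1.6, which holds MGA and MAX, a pair that binds the E-box CACGTG, and E2F6, which binds sites of the type GCGGGAA. RefSeq promoter windows (GRCh38.p14, 250 bases before to 50 after the annotated start) were found for 8 of the 10 genes, 12 windows in all, with no entry for PIWIL2 and PIWIL4. The 4 windows printed are the first of GPAT2, that of TDRD12, the first of TDRD1 and the second of MAEL. They run 5′ to 3′ along the gene's strand, and capitals mark matches to CACGTG.
GPAT2, chr2:96034867-96035166, minus strand: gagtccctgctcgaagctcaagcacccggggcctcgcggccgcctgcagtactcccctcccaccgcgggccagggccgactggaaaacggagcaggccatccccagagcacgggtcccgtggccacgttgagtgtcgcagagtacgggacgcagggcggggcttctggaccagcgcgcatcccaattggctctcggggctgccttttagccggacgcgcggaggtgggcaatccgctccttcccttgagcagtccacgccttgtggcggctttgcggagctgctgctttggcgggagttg
TDRD12, chr19:32719517-32719816, plus strand: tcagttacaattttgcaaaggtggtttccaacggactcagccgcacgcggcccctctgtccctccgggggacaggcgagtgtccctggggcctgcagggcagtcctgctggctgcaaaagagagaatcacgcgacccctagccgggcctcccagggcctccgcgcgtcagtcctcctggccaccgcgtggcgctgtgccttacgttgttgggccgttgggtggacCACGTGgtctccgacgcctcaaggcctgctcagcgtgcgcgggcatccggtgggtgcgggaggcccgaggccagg
TDRD1, chr10:114179037-114179336, plus strand: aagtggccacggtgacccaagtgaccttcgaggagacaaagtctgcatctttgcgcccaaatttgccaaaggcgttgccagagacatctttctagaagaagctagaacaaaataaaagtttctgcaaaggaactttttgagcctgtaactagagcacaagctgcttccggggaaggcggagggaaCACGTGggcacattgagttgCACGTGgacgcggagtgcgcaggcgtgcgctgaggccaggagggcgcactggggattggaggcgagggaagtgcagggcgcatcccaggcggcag
MAEL, chr1:166989030-166989329, plus strand: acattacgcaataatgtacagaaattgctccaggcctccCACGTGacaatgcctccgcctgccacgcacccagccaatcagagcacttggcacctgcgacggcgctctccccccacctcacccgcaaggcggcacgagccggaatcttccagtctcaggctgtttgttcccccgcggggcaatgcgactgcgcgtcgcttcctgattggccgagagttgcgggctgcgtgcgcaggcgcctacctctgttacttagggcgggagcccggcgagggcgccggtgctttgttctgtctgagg

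The TDRD12 window holds 1 E-box, whose first base lies 25 bases before the start. The TDRD1 window holds 2, at 65 and 45 bases before the start, and the MAEL window holds 1 at 211. GPAT2 has 3 windows and neither motif in any of them. In all, 4 of 12 member windows held an E-box (2 of these are overlapping TDRD1 windows), against 7.26% of the 35116 windows in the table. GCGGGAA, searched on both strands, was found in the windows of ASZ1 (61 bases before the start) and TDRD9 (position 2 after the start), against 6.55% of all windows. No E-box overlapped a GCGGGAA match. The motifs thus occurred in promoters of genes near background (TDRD1, TDRD9, ASZ1) and in that of TDRD12, and were not found in these windows of GPAT2. A letter match is a description and not a measured binding site.

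The members' windows also differed in their number of CpG dinucleotides, the sites of DNA methylation. The printed GPAT2 window has 28 CpG and the TDRD12 window 26, close to the upper quartile of all windows, which is 28 around a median of 14. The other windows of GPAT2 hold 11 and 3. Among genes near background, MOV10L1 has 44, TDRD9 41, PIWIL1 30, ASZ1 29 and TDRD1 17 or 21. MAEL has 60 in its first window and 27 in the printed one. The counts of GPAT2 and TDRD12, 3 to 28, thus overlapped those of these genes, 17 to 44.

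Among the PIWI proteins, which carry the piRNA, no probe set stood above the yardstick on any array. By the 90th percentile, PIWIL2 (220686_s_at and 239303_at) and PIWIL4 were above background on the second untreated array. Their values there were 65.4, 60.8 and 77.7 against 57.4. PIWIL2 passed the 90th percentile on treated arrays too. Its 239303_at did so on the second and the third treated HSF-6(8) array, with 73.2 and 87.8. Its 220686_s_at did so on the first treated HSF-6(S9) array, with 77.7. PIWIL1 (214868_at), the PIWI protein of later spermatogenesis, had 20.2, 31.1 and 10.2 in untreated HSF-6(8), 46.4, 11.4 and 26.6 in treated HSF-6(8), and 23.7, 30.6 and 15.3 in treated HSF-6(S9). These groups overlapped. PIWIL2, the partner of GPAT2 in mouse germ cells, had intensities of 1.98 to 10.3 (217421_at), 9.78 to 77.7 (220686_s_at) and 12.8 to 87.8 (239303_at) over the 9 arrays. By the yardstick, all of its 3 probe sets were near background on all arrays on which GPAT2 had signal. By the 90th percentile this did not hold on the treated arrays named above. PIWIL4, the nuclear PIWI protein that directs DNA methylation, ranged from 11.0 to 77.7 (230480_at), and its highest value was in an untreated sample.

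The Tudor proteins TDRD1 and TDRD9 also stayed under the yardstick. TDRD1 (221018_s_at), a scaffold that binds PIWI proteins in nuage, had 2.24, 4.06 and 8.08 in untreated HSF-6(8), 36.0, 8.38 and 20.7 in treated HSF-6(8), and 22.6, 6.67 and 19.9 in treated HSF-6(S9). All treated HSF-6(8) values were above the untreated ones, at levels where no fold can be read. TDRD9 (228285_at), a helicase that works with PIWIL4, ranged from 3.53 to 55.7, and both extremes were in treated samples.

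MOV10L1, the helicase that feeds precursor RNA into the pathway, gave probe sets that did not move alike. Its 224385_s_at had 35.1, 26.6 and 15.6 in untreated HSF-6(8), 7.54, 1.53 and 6.86 in treated HSF-6(8), and 2.60, 5.75 and 10.5 in treated HSF-6(S9). Its 239257_at had 45.7, 33.1 and 8.36, then 11.2, 11.1 and 6.12, then 24.1, 47.5 and 45.1. The first was lower in both treated groups with no overlap, and the second was higher in treated HSF-6(S9) than in treated HSF-6(8) with no overlap, all under the yardstick. ASZ1 (1569729_a_at), which anchors nuage at mitochondria, had 12.5, 12.5 and 1.20 in untreated HSF-6(8), 9.68, 11.3 and 0.645 in treated HSF-6(8), and 8.91, 21.2 and 1.06 in treated HSF-6(S9). The lowest value of each group was on the third array.

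The comparison of treated with untreated HSF-6(8) asks what the pair of compounds changed in 1 subline. On the log2 scale with 16 added to each intensity, treated minus untreated was 3.93 ± 0.25 (SE) for GPAT2 and 1.95 ± 0.25 for TDRD12. The GPAT2 value depends on the added number, with 5.21 when 1 and 2.57 when 64 was added, because its untreated signal was background. TDRD12, which had untreated signal, ranged from 1.69 to 2.17 over all alternatives run. Probe sets were tested if at least 3 of 9 arrays lay above their own median, which 2 of 13 member probe sets did (GPAT2 and TDRD12) and 53.7% of all probe sets. Both were called higher by limma (Benjamini-Hochberg adjusted p under 0.05 and at least 2-fold), where 0.3% of 29328 probe sets were called in either direction. They were chosen from this contrast, so the count supports nothing. It fell to 1 of 2 without the second or the third untreated array or without the second treated HSF-6(8) array, where TDRD12 was not called.

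The other 11 member probe sets had treated minus untreated differences from -0.96 to 1.07 on the same scale in a fit without the filter, with a median of -0.09 against 0.02 for all probe sets. None of them was called by limma in that fit, in which 0.097% of probe sets were called, and 3 had an unadjusted p under 0.05 (TDRD1, MAEL and MOV10L1 224385_s_at). The share of all probe sets under that unadjusted p was not computed, here or for the comparisons and lists below. Such counts are therefore descriptions only. MAEL had the highest of these differences, 1.07 ± 0.36. Arrays of the groups did not overlap for 5 of 13 member probe sets, with GPAT2, TDRD12, TDRD1 and MAEL higher and MOV10L1 (224385_s_at) lower. Such separation was seen in 12.6% of all probe sets. GPAT2 and TDRD12 were chosen from this contrast, so their part in this count supports nothing. TDRD1 and MOV10L1 (224385_s_at) were under the yardstick on every array, and MAEL on all but 1.

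Treated HSF-6(S9) and treated HSF-6(8) differ by subline under the same treatment. The treated HSF-6(8) arrays are those on which GPAT2 and TDRD12 were chosen for high values, which lowers HSF-6(S9) minus HSF-6(8) by selection, so their differences are a description with no test. GPAT2 differed by -0.11 ± 0.25 (SE, HSF-6(S9) minus HSF-6(8)). TDRD12 differed by -0.42 ± 0.25, and its groups overlapped, since the highest HSF-6(S9) array (719) lay above the lowest HSF-6(8) array (710.3). Limma called neither gene and no other probe set here (0% of 29328), and neither gene had an unadjusted p under 0.05, which does not show that the sublines act alike. MAEL, near background in both, differed by -0.40 ± 0.36. Of the 11 probe sets outside the filtered fit, MOV10L1 (239257_at) had the highest difference, 1.09, with an unadjusted limma p of 0.0121 and an adjusted p of 0.99993. It was the single member without overlap between these groups, against 7.92% of all probe sets, and all its values were under the yardstick.

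The third comparison, of treated HSF-6(S9) against untreated HSF-6(8), shares its untreated arrays with the comparison that chose GPAT2 and TDRD12, so their values and calls are a description here too and support nothing. The difference was 3.82 ± 0.25 for GPAT2 and 1.54 ± 0.25 for TDRD12 on the log2 scale. Both passed the calling rule, which 0.389% of 29328 probe sets did. With the prime marks as a replicate block, 1 of 2 (GPAT2) was called, and TDRD12 was also not called without the second or the third untreated array, when the first or the second of the treated HSF-6(8) arrays was left out, or without any of the HSF-6(S9) arrays. MAEL differed by 0.67 ± 0.36 (limma adjusted p = 0.677). The other 11 probe sets ranged from -0.89 to 0.67 and none was called by limma in the fit without the filter (0.108% of all probe sets called), and 1 had an unadjusted p under 0.05, MOV10L1 (224385_s_at, adjusted p = 0.327). GPAT2 and TDRD12 were higher and MOV10L1 (224385_s_at) lower without overlap, against 14.1% of all probe sets.

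**Figure D3:**
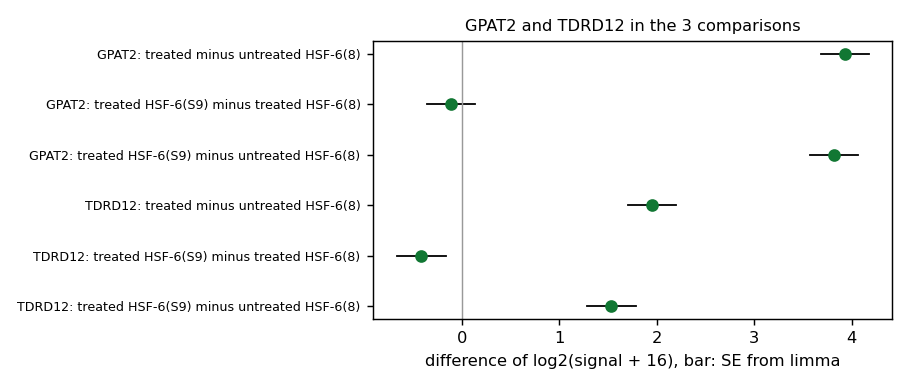
Log2 differences between groups (log2 of intensity + 16, points with SE bars from limma) for GPAT2 and TDRD12 in the 3 comparisons. Both genes lie above 0 against untreated cells, GPAT2 at 3.93 and 3.82 and TDRD12 at 1.95 and 1.54. Between the treated sublines, GPAT2 lies at -0.11 and TDRD12 at -0.42. The comparisons share arrays and are not independent.

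The third arrays of the 3 groups stood apart in their 18S ribosomal RNA signal, with 1194, 723 and 2149 against 316 to 513 on the other 6. The third treated HSF-6(8) array had the highest GPAT2, TDRD12, MAEL, TDRD9 and PIWIL2 (239303_at) values of all, and the highest summed intensity of 9 fibroblast markers. The part of either in these results was not tested. With the first and second arrays alone, GPAT2 was still called against untreated cells in both sublines and TDRD12 in neither, 1 of 2 each. With all 9 arrays and a term for the third arrays, both genes were called in both comparisons, 2 of 2 each. On the first and second arrays alone, the number of member probe sets near background on every array was 11. MAEL was under the yardstick on each of those arrays.

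Other genes of the piRNA pathway were taken as a list of 24, of which 21 had a probe set. By the yardstick 11 of these 21 were near background on every array, among them DDX4, the RNA helicase that marks germ cells. The filter passed 10, and none was called in any comparison by limma. Treated against untreated HSF-6(8), 3 had an unadjusted p under 0.05, all higher, with no share over all probe sets to set beside them. The median over the list was 0.20 on the log2 scale, against 0.02 for all probe sets. DNMT3L, the cofactor of de novo DNA methyltransferases in germ cells, had 141, 112 and 78.9 in untreated HSF-6(8), 326, 205 and 562 in treated HSF-6(8), and 356, 246 and 239 in treated HSF-6(S9). All 6 treated values were above the untreated ones. Against untreated HSF-6(8), separation in either direction was seen in 12.6% of all probe sets for treated HSF-6(8) and 14.1% for treated HSF-6(S9). Its difference was 1.50 ± 0.35 in HSF-6(8) (adjusted p = 0.190) and 1.23 ± 0.35 in HSF-6(S9) against untreated HSF-6(8) (adjusted p = 0.212).

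HENMT1, which methylates the 3′ ends of piRNAs, had 379.7, 375 and 295 in untreated HSF-6(8), 543, 800.2 and 883 in treated HSF-6(8), and 597, 779 and 825 in treated HSF-6(S9). Again no treated value overlapped the untreated ones. Its difference was 1.03 ± 0.23 in both sublines against untreated HSF-6(8) (limma adjusted p = 0.173 and 0.130). TEX15, a nuclear factor of piRNA-directed methylation, differed by 1.11 ± 0.30 in HSF-6(8) (adjusted p = 0.269). HENMT1 was named after its values were seen. Against untreated HSF-6(8), the list in treated HSF-6(S9) had 2 unadjusted p under 0.05, both higher, and a median of 0.15. Between the treated sublines the list had no unadjusted p under 0.05 and a median of -0.24, with the largest differences among genes that passed the filter for TDRD5 (-0.81 ± 0.50) and TEX15 (-0.56 ± 0.30), both with an adjusted p of 0.99981.

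**Figure D4:**
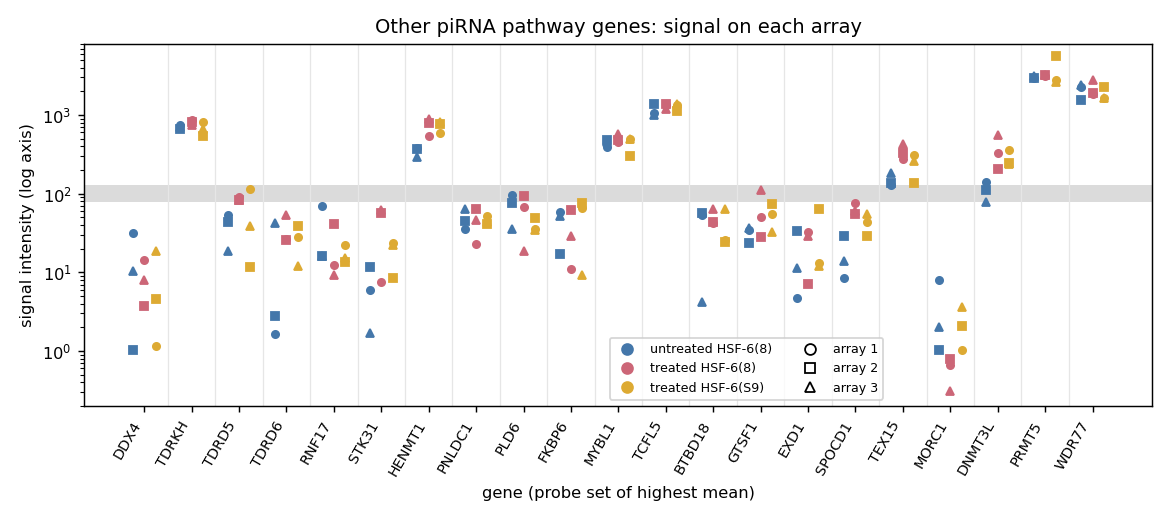
Intensity (log axis) on the 9 arrays of the 21 other piRNA pathway genes with a probe set, 1 point per array and colour by group, with the range of the yardstick as a grey band. By each array's own yardstick 11 genes are near background on every array. TDRD5 and GTSF1 also stay within or below the band but pass the yardstick of 1 array each. All treated points of DNMT3L and HENMT1 lie to the high side of the untreated ones.

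GPAT2 is also an enzyme of glycerolipid synthesis, so the rest of that route was examined. Of 13 genes 12 had a probe set, 11 passed the filter and none was called by limma in any comparison. Treated against untreated HSF-6(8), none had an unadjusted p under 0.05. Of the other glycerol-3-phosphate acyltransferases, GPAM, the mitochondrial form, had 716 ± 85.0 in untreated cells. GPAT4, a form of the endoplasmic reticulum, had 1325 ± 145 (SD, n = 3). Their treated HSF-6(8) means were 846 ± 68.5 and 1553 ± 81.9. GPAT3 was near background on most arrays, with 91.6 ± 44.5 in untreated cells, and passed the yardstick on 3 of 9. Among those that passed the filter, the largest differences in HSF-6(8) were LPIN1 at -0.24 ± 0.32 and GPAM at 0.24 ± 0.21 on the log2 scale. In treated HSF-6(S9) against untreated HSF-6(8), AGPAT2 had -0.56 ± 0.23 (adjusted p = 0.404), the single unadjusted p under 0.05, and GPAT3 had -0.54 ± 0.41.

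The PRC1.6 complex named with the promoters was measured as 15 genes, 14 with a probe set, all of which passed the filter. None was called by limma in any comparison, and the unadjusted p was under 0.05 for 1, 0 and 2 of them in the order of the comparisons above. The mean intensity of E2F6 was 1524 ± 225, 1783 ± 60.2 and 1939 ± 332 in the 3 groups, and that of MGA was 1325 ± 260.0, 1250.2 ± 219 and 1208 ± 282. YAF2, a partner of RING1 proteins, had the largest difference, 1.28 ± 0.51 in HSF-6(8) (limma adjusted p = 0.576), followed by CBX3 at -0.27 ± 0.19 (adjusted p = 0.899). YAF2 had 1.56 ± 0.51 in HSF-6(S9) against untreated HSF-6(8) (adjusted p = 0.276). Its intensities in untreated HSF-6(8) were 12.4, 27.7 and 63.2, all under the yardstick, which it passed on 3 of 9 arrays. The differences of YAF2 thus start from background and are not folds of its RNA.

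Markers of the labelled cell type were present, with 11 of 12 pluripotency genes measured and all 11 above the yardstick on all 9 arrays, and none called. The largest differences in HSF-6(8) were PODXL at -0.55 ± 0.26 (limma adjusted p = 0.694) and NANOG at -0.48 ± 0.26 (adjusted p = 0.793). Of 7 primordial germ cell genes with a probe set, DDX4 and NANOS3 were near background on every array and none was called. The summed intensity of the 7 ran from 5200 to 5958 in untreated HSF-6(8), from 4947 to 5501 in treated HSF-6(8) and from 4440 to 5384 in treated HSF-6(S9). Most of these sums came from TFAP2C, with means of 3846, 3067 and 2987 in the 3 groups. They therefore do not describe the 7 genes as a set. DAZL, an RNA-binding protein of germ cells, had 378, 471 and 781 in untreated HSF-6(8), 190.4, 159 and 139 in treated HSF-6(8), and 182, 57.4 and 197 in treated HSF-6(S9). It thus lay on the low side in the treated samples in which GPAT2 lay on the high side, at -1.59 ± 0.42 (limma adjusted p = 0.251) and -1.88 ± 0.42 (adjusted p = 0.121) against untreated cells. SOX17, a regulator of human germ cell fate and endoderm, had 1.81 ± 0.60 in treated HSF-6(8) (limma adjusted p = 0.422), with intensities of 127, 208 and 977, and 0.99 without the third of these arrays. PRDM1, which acts with it, had 1.28 ± 0.23 (adjusted p = 0.0882), and 1.02 without that array. SOX17 had 1.05 ± 0.60 in HSF-6(S9) against untreated HSF-6(8) (adjusted p = 0.576).

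Of 18 meiotic genes with a probe set, 13 were near background on every array, and none was called. Their summed intensity was 1404 to 1781 in untreated HSF-6(8), 1799 to 2249 in treated HSF-6(8) and 1615 to 2429 in treated HSF-6(S9). The treated HSF-6(8) sums lay above the untreated ones by a narrow gap, 1799 against 1781. STAG3 by itself differed by more than that gap, with 121, 82.2 and 108 in untreated and 372, 653 and 184 in treated HSF-6(8). Means of other single genes did so too, in both directions. From untreated to treated HSF-6(8), REC8 went from 652 to 734, DMC1 from 155 to 228 and SYCE2 from 171 to 145. The sums therefore do not show a rise of these genes as a set. In HSF-6(8), 2 genes were higher and 0 lower at an unadjusted limma p under 0.05. Of the 5 that passed the filter, STAG3, a cohesin subunit of meiosis, had the largest difference, 1.65 ± 0.48 in HSF-6(8) (limma adjusted p = 0.320), followed by the recombinase gene DMC1 at 0.53 ± 0.23 (adjusted p = 0.640). None of the 9 fibroblast markers was near background on every array. However, LUM and POSTN passed the yardstick on 1 array each, the third treated HSF-6(8) array, and DCN on 4. Their summed intensity was 15464 to 20372, 14609 to 34222 and 14936 to 16770 in the 3 groups, and none was called. The largest differences in HSF-6(8) went in opposite directions, with COL1A1 at 1.10 ± 0.27 (limma adjusted p = 0.213) and TAGLN at -0.87 ± 0.62 (adjusted p = 0.911). TAGLN had 2168, 2098 and 12908 on the treated HSF-6(8) arrays, and -1.73 without the third. The part of germ cell or fibroblast RNA in the values of GPAT2 and TDRD12 was not tested.

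Among 24774 single-gene probe sets that passed the filter, those most like GPAT2 over the 9 arrays were of ENPP2 (Pearson r of 0.995), SYT11 (0.995) and BEX5 (0.989). ENPP2, a secreted lysophospholipase, had 58.9 ± 5.82, 567 ± 87.0 and 537 ± 101 in the 3 groups (SD, n = 3). The probe sets most like TDRD12 were of NEFL (0.983), BOC (0.972) and SDCCAG8 (0.972). NEFL, a neurofilament subunit, had 68.9 ± 23.9, 669 ± 121 and 539 ± 117. These are descriptions with no test, over points that share arrays and scaling and fall into a low untreated and a high treated cluster, so r is largely fixed by that gap.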

How the data were processed

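Samples were grouped by the labels. The authors deposited 1 table that gives each probe set's signal as a linear intensity, made with Affymetrix Expression Console and MAS5 per the submitters' processing notes. For both programs the version is not given in the sources used here. In MAS5, the software sets mismatch probes against perfect-match probes and scales each array: here the mean without the top and bottom 2% was 500.061 to 500.076. Array medians were 64.8 to 82.9, and replicates shared at most 1 identical value (r 0.945 to 0.977). Precision is limited by the number of arrays.

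Of 54675 probe sets, 62 controls were left out and 41091 map to 1 gene by GEO's platform annotation. To each intensity 16 was added before log2, so differences of dim genes are understated. Probe sets with at least 3 of 9 arrays above their own median (29328) entered limma 3.58.1 (R 4.3.3; lmFit and eBayes, all 9 arrays, 6 residual and 3.20 prior degrees of freedom). Tests were two-sided, with Benjamini-Hochberg adjustment over these probe sets. Calls needed an adjusted p under 0.05 and 2-fold. Members failing the filter were read from a fit of all 54613. The calling steps were tested on simulated data.

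The members and all gene lists were chosen with earlier results of these data known. All member probe sets are reported; from each list come called genes or the 2 largest changes among genes that passed the filter, mainly in treated against untreated HSF-6(8), by the probe set with the highest mean, and 3 most similar genes for GPAT2 and TDRD12. The lists were other piRNA pathway genes, glycerolipid synthesis, PRC1.6, and markers of pluripotent, primordial germ, meiotic and fibroblast cells. With group means taken out, same-mark arrays correlated in all 9 pairs of groups and marks (r 0.12 to 0.585). Different-mark arrays among the first and second correlated as well (0.061 to 0.383), and the third arrays with the others negatively (-0.48 to -0.22). Deviations from a group mean cancel out within the group, so the negative values follow from the positive ones and are not separate evidence. The third arrays were set apart by their correlation with each other (0.405 to 0.585). Pairing by mark between the first and second was not shown. The main fit left the marks unpaired, and the replicate block was an alternative. Alternatives were the added number, the filter, 1 probe set per gene, quantile normalization, the replicate block, a third-array term, only the groups compared, another variance model, other yardsticks and leaving out each array.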

Additional observations from a re-analysis of the deposited data

How the results depend on the processing

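No direction of GPAT2 or TDRD12 against untreated cells was reversed in any alternative run. Both genes were chosen for being higher on these same arrays, so a reversal was hardly possible and the stable direction supports nothing. The count of 2 member probe sets called was not stable. Treated against untreated HSF-6(8), it was 1 with only the compared groups in the fit, 1 with only the first and second arrays (an alternative chosen after seeing the data) and 1 with a 75th percentile filter, where GPAT2 was not tested. It ran from 1 to 2 when each array was left out. In treated HSF-6(S9) against untreated HSF-6(8), it was 1 with 1 added, without a filter, with quantile normalization, with the replicate block, with only the compared groups, with only the first and second arrays and with the 75th percentile filter, and from 1 to 2 when each array was left out. The gene lost was TDRD12 except under the 75th percentile filter, whose cause is that GPAT2 was not tested there; otherwise the cause was not tested. Between the treated sublines it was 0 in all 20 alternatives. The replicate block changed no other call of a member. Over all probe sets the replicate block gave 148 and 233 calls against 88 and 114, a third-array term 214 and 295, no filter 53 and 59, only the compared groups 54 and 62. Calls were 48 with the 75th percentile filter for treated against untreated HSF-6(8), and 53 with the first and second arrays for HSF-6(S9) against untreated HSF-6(8). Leaving out arrays gave 41 to 119 and 37 to 161, and between the treated sublines 0 (1 with 1 added, with quantile normalization or with 1 probe set per gene). The 10 probe sets near background were 7 by the 90th percentile, 11 by the 99th, 7 by the array's own median, and 10 to 11 with arrays left out. Those lost by the 90th percentile and by the median were PIWIL2 (220686_s_at and 239303_at) and PIWIL4. PRDM1 was called against untreated HSF-6(8) with 1 probe set per gene and with the third-array term, TAGLN was called lower there with the first and second arrays, and YAF2 was called in HSF-6(S9) against untreated HSF-6(8) with the third-array term.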
